A study of Mus musculus with 9 samples.

Results

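The 9 genes described here encode 5 STAT transcription factors (*Stat3*, *Stat4*, *Stat5a*, *Stat5b* and *Stat6*) and 4 members of the SOCS family of feedback inhibitors (*Socs1*, *Socs2*, *Socs3* and *Cish*). They were picked by gene name from the 55487 mouse genes of the table, and all 9 were among the 15536 genes that passed the filter on low values. The RNA-seq libraries came from splenic CD4+ T cells of female wild type C57BL/6 mice (*Trail-r*+/+), purified by removing other cells and cultured in RPMI-1640 with fetal calf serum and antibiotics. The first 3 libraries were from cells kept in this medium alone. The next 3 were from cells activated for 24 h with Abs to CD3 of the TCR complex, at 3 µg/ml, and to the costimulatory receptor CD28, at 2 µg/ml, and the last 3 from cells that received both Abs together with TRAIL (10 µg/ml) over the same 24 h. TRAIL belongs to the TNF ligands and acts through its receptor TRAIL-R. The study used these groups to look for transcripts that differ when TRAIL-R is engaged in activated T cells. How long the medium cells were cultured is not given in the sources used here. They also do not say whether the 3 libraries of a group came from separate mice, so the p-values measure only the spread between these libraries, which may be technical.

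STAT proteins wait in the cytoplasm until a cytokine receptor is engaged. JAK kinases bound to the receptor then phosphorylate them, and the paired STATs enter the nucleus and switch on target genes. Among those targets are the SOCS genes, whose proteins bind receptors or JAKs and recruit a ubiquitin ligase, and so limit the signal that induced them. In T cells, IL-2 and the other common gamma chain cytokines act mainly through STAT5A and STAT5B, IL-12 through STAT4, IL-4 and IL-13 through STAT6, and IL-6 and IL-21 mainly through STAT3.

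Feedback on the SOCS genes makes the sequence next to their start sites of interest, so it is shown for the 3 SOCS genes with a start-site window that held a motif match. RefSeq windows (GRCm38.p6) from 250 bases before to 50 after a start were searched on both strands for TTCNNNGAA, the palindrome that most STAT dimers bind, for the same palindrome with 1 more N in the middle, the spacing preferred by STAT6, and for GAAA followed by NN and a further GAAA, a repeat bound by interferon regulatory factors. N stands for any base. Among all 32851 windows, 8.30% held the first motif, 6.95% the second and 3.44% the third. The 9 genes gave 11 windows for 8 genes, with none for *Socs2*. Matches are in capitals below, and all sequences are written 5′ to 3′ on the strand of the gene. The *Cish* stretch is chr9:107296654-107296683 (plus strand), within a 5′ UTR exon of a *Cish* transcript and across the RefSeq start. The *Socs3* stretch is chr11:117969501-117969530 (minus strand), in an intron of a *Socs3* transcript and upstream of the RefSeq start. The *Socs1* stretch is chr16:10785537-10785786 (minus strand), the 250 bases just upstream of the gene and outside every annotated transcript of it.
Cish: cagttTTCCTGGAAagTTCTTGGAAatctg
Socs3: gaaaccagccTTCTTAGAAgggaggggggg
Socs1: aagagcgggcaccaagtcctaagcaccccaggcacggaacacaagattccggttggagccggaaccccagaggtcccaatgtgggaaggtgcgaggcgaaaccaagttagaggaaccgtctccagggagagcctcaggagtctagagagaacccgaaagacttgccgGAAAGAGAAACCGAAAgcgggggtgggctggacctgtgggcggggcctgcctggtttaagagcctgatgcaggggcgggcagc
The *Cish* window held 2 matches to TTCNNNGAA within this short stretch, and the *Socs3* window held 1. The *Socs1* window held 2 overlapping matches to the GAAA repeat that share 4 bases and no match to either STAT motif. The second *Stat4* window held 1 match to this repeat, and the windows of *Stat3*, *Stat5a*, *Stat5b* and *Stat6* held none of the 3 motifs. A match describes letters in the window and does not show binding.

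The table gives TPM, which sets the reads of a gene against its length and scales each library to the same total, so depth is unknown and each value is a relative abundance. T cell markers were present in every library. Their summed level over 7 genes was 2353 to 2600 TPM with medium alone, 1953 to 2153 TPM after stimulation and 2294 to 2567 TPM with TRAIL. The libraries also held transcripts of other spleen cells. The summed level of 9 B cell markers ranged from 2213 to 2290 TPM with medium alone, from 170 to 190 TPM after stimulation and from 931 to 1045 TPM with TRAIL. For 13 myeloid markers it was 2607 to 2957, 236 to 271 and 1958 to 2272 TPM, and for 7 erythroid markers 2137 to 2585, 24.8 to 39.6 and 619 to 669 TPM, with 2 of the 7 at the lowest value of the table in all stimulated libraries. The sum of 5 NK cell markers was 162 to 200, 46.4 to 65.9 and 57.3 to 62.5 TPM, and that of 2 CD8 T cell markers 110 to 118, 94.2 to 105 and 46.9 to 49.4 TPM. The B cell, myeloid and erythroid markers thus moved with the groups in the same order. So did 4 of the 5 NK cell markers, while the other, *Nkg7*, was at 67.8, 44.1 and 29.5 TPM. The part of these cells in the results below was not tested. In bulk RNA, fewer cells of a type and less RNA per cell cannot be told apart. Stimulated replicate 1 stood further from its group than the other 8 libraries did from theirs. The SD of its deviations from the group mean was 0.265 on the log2(TPM + 1) scale, against 0.157 to 0.207. In that library *Stat3*, *Stat5a*, *Stat5b* and *Stat6* were lower than the mean of the other two stimulated libraries by log2 differences of -0.68, -0.44, -0.54 and -0.59, *Socs1* was higher by 0.41, and *Stat4*, *Socs2*, *Socs3* and *Cish* differed by -0.19 to -0.03, where the SD of this difference over all tested genes was 0.40.

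**Figure D1:**
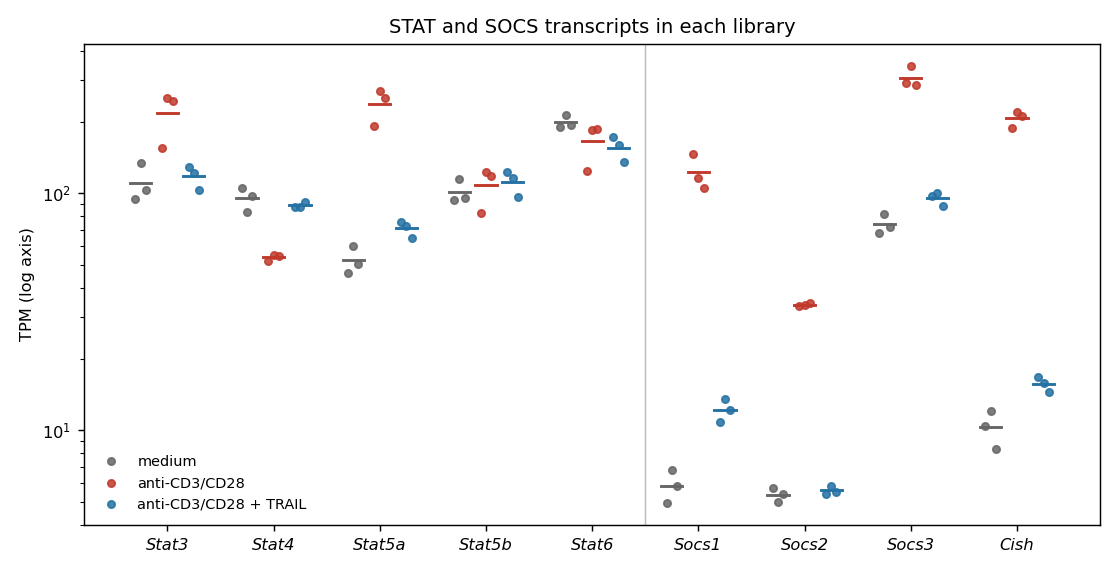
TPM on a log axis of the 5 STAT and 4 SOCS genes in each of the 9 libraries, 3 per group, with a short line at the mean of a group. *Socs1* and *Cish* reached at most 13.6 and 16.8 TPM in the medium and TRAIL-treated libraries and were at 105 TPM or more in all stimulated libraries, while *Stat5b* overlapped between all groups.

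The first question was how the STAT and SOCS transcripts answered anti-CD3/CD28 stimulation. All 4 SOCS genes and 2 of the 5 STAT genes rose, *Stat4* fell, and *Stat5b* and *Stat6* did not pass the test. The largest rises were those of *Socs1* and *Cish*, both over 20-fold in mean TPM. A gene passed when its adjusted p from limma (Benjamini-Hochberg over all tested genes, on log2(TPM + 1)) was under 0.05, and it was called when it also changed at least 2-fold. Of the 9 genes, 7 passed against 68.7% of all tested genes, and 5 were called, all higher, against 31.9% of all tested genes called, 12.4% as higher and 19.5% as lower. Their median log2 difference was 2.04, beside -0.15 for all tested genes.

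*Socs1* encodes an inhibitor that binds JAKs directly and blocks their kinase domain. It was at 4.93, 6.79 and 5.80 TPM in the medium libraries and at 147, 117 and 105 TPM in the stimulated libraries. The groups were far apart, with means of 5.84 ± 0.93 and 123 ± 21.7 TPM (SD, n = 3), a 21.1-fold ratio. The log2 difference was 4.18 (SE 0.15, limma adjusted p = 6.0e-09). *Cish*, a classical STAT5 target whose protein binds cytokine receptors and restrains TCR signaling, was at 10.4, 12.1 and 8.34 TPM in medium. It reached 189, 220 and 213 TPM after stimulation. Every stimulated library lay above every medium library, the means of 10.3 ± 1.87 and 207 ± 16.2 TPM (SD, n = 3) differed 20.1-fold, and the log2 difference was 4.22 (SE 0.13, limma adjusted p = 2.3e-09).

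*Socs2*, best known for limiting growth hormone signaling through STAT5, was the scarcest of the 4 SOCS genes in stimulated cells. It was at 5.70, 4.98 and 5.38 TPM in medium and at 33.3, 33.8 and 34.4 TPM after stimulation, 2 tight groups without overlap. Its mean rose 6.32-fold from 5.35 ± 0.36 to 33.9 ± 0.52 TPM (SD, n = 3), with a log2 difference of 2.46 (SE 0.098, limma adjusted p = 1.1e-08). *Socs3*, which binds gp130-type receptors and restrains STAT3, was the most abundant SOCS transcript in all 9 libraries. It was at 67.9, 81.7 and 72.3 TPM in medium and at 293, 345 and 286 TPM after stimulation, again without overlap. Its mean rose 4.17-fold, from 74.0 ± 7.05 to 308 ± 32.3 TPM (SD, n = 3), and its log2 difference of 2.04 had an SE of 0.11 (limma adjusted p = 8.2e-08).

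Among the STAT genes, *Stat5a* rose the most. It was at 46.2, 60.1 and 50.5 TPM in medium and at 193, 270 and 254 TPM after stimulation, and the lowest stimulated library lay above the highest medium library. The mean rose 4.57-fold (52.2 ± 7.13 to 239 ± 40.5 TPM, SD, n = 3), with a log2 difference of 2.17 (SE 0.14, limma adjusted p = 4.3e-07). *Stat3* was at 94.8, 134 and 103 TPM in medium and at 156, 253 and 245 TPM after stimulation. It rose 1.97-fold in mean TPM without overlap (log2 difference 0.96, SE 0.20, limma adjusted p = 0.0014), just short of the 2-fold mark. Without stimulated replicate 1, its log2 difference was 1.18 and it was called. *Stat4*, the IL-12 factor of Th1 differentiation, went the other way. It was at 105, 83.6 and 97.7 TPM in medium and at 51.7, 54.9 and 54.6 TPM after stimulation, without overlap, and its log2 difference of -0.81 (SE 0.099) passed with a limma adjusted p of 3.9e-05.

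*Stat5b*, the close relative of *Stat5a*, was at 93.3, 115 and 95.9 TPM in medium and at 82.9, 123 and 118 TPM after stimulation. These ranges overlapped. The log2 difference was 0.08 (95% interval -0.28 to 0.44, limma adjusted p = 0.68), so a 2-fold change in either direction lay outside the interval. *Stat6*, the IL-4 factor of Th2 differentiation, was at 191, 213 and 194 TPM in medium and at 124, 186 and 188 TPM after stimulation. Its groups did not overlap, yet the log2 difference of -0.29 (95% interval -0.65 to 0.07) did not pass (limma adjusted p = 0.13). Counting *Stat6*, 8 of the 9 genes had no overlap between medium and stimulated libraries, 6 of them higher and 2 lower after stimulation. Of all tested genes, 72.6% had none, 29.9% as higher and 42.6% as lower. Without stimulated replicate 1, the log2 differences from medium were 4.04 for *Socs1*, 4.28 for *Cish*, 2.47 for *Socs2*, 2.08 for *Socs3*, 2.31 for *Stat5a* and -0.78 for *Stat4*, all of which still passed. *Stat5b* was then at 0.26 and *Stat6* at -0.09, and neither passed (limma adjusted p = 0.093 and 0.47).

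**Figure D2:**
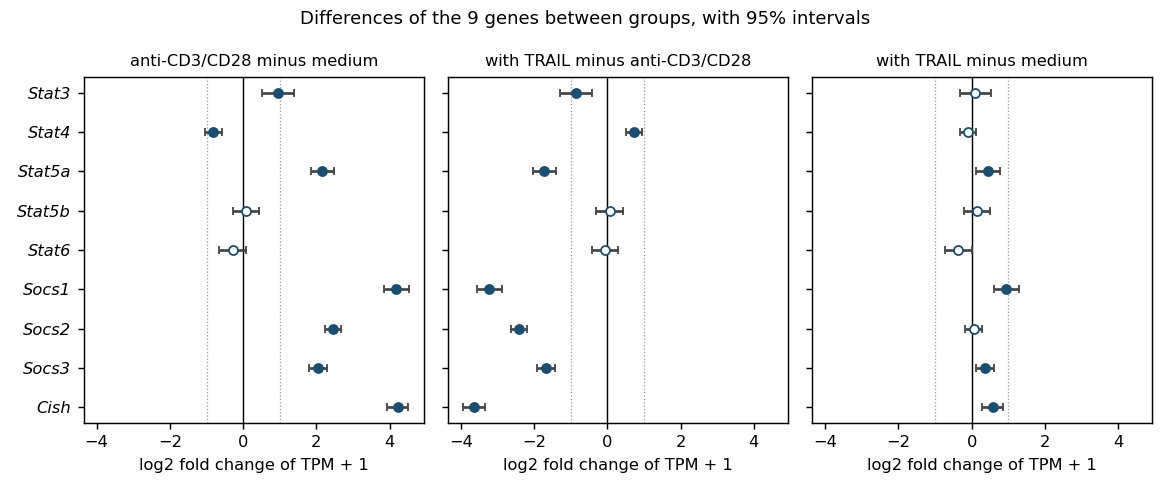
Log2 fold change of TPM + 1 for each of the 9 genes in the 3 comparisons between groups, as points with 95% intervals from limma. *Socs1* and *Cish* lay at 4.18 and 4.22 in stimulated against medium cells and at -3.23 and -3.64 in TRAIL-treated against stimulated cells, and the intervals of *Stat5b* crossed 0 in all 3 comparisons.

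The next question was how these transcripts differed when TRAIL was present during stimulation. TRAIL-treated activated T cells had lower levels of all 4 SOCS genes and of *Stat3* and *Stat5a* than stimulated cells, and a higher level of *Stat4*, while *Stat5b* and *Stat6* did not pass the test. The stimulated libraries are the same ones as in the first comparison, so a deviation in them enters both with opposite signs. Of the 9 genes, 7 passed beside 67.1% of all tested genes, and 5 were called, all lower, beside 30.9% of all tested genes called and 14.3% called lower. The same 7 genes had no overlap between groups, 1 as higher and 6 as lower, beside 70.4% of all tested genes, 35.5% as higher and 34.9% as lower. The median log2 difference was -1.68 beside 0.01 for all tested genes.

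*Cish* showed the largest fall, to 16.8, 15.8 and 14.5 TPM in the TRAIL-treated libraries (15.7 ± 1.17, SD, n = 3). No TRAIL-treated library came near the stimulated range of 189 to 220 TPM, and the mean was 13.2-fold lower (log2 difference -3.64, SE 0.13, limma adjusted p = 7.3e-09). *Socs1* was at 10.8, 13.6 and 12.1 TPM with TRAIL, a mean 10.1-fold lower than in stimulated cells. Its log2 difference was -3.23 (SE 0.15, limma adjusted p = 4.1e-08). *Socs2* was at 5.39, 5.85 and 5.50 TPM with TRAIL, all below the stimulated libraries. It fell by 2.41 on the log2 scale (SE 0.098, limma adjusted p = 1.5e-08), 6.07-fold in mean TPM. *Socs3* was at 97.5, 100.5 and 88.3 TPM, 3.23-fold below stimulated cells in mean TPM (log2 difference -1.68, SE 0.11, limma adjusted p = 3.9e-07).

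*Stat5a* was at 76.1, 72.6 and 65.0 TPM with TRAIL, 3.35-fold below its stimulated mean. The groups were separate, and the log2 difference was -1.72 (SE 0.14, limma adjusted p = 2.6e-06). *Stat3* was at 130, 121 and 104 TPM, all below the lowest stimulated library of 156 TPM. Its log2 difference was -0.85 (SE 0.20, limma adjusted p = 0.0030), and -1.08 without stimulated replicate 1, which then passed the 2-fold mark. *Stat4* was higher with TRAIL in every library, at 87.4, 87.9 and 91.7 TPM, by 0.72 on the log2 scale (SE 0.099, limma adjusted p = 9.6e-05). For *Stat5b*, the TRAIL-treated libraries at 123, 116 and 96.7 TPM lay within the stimulated range, with a log2 difference of 0.06 (95% interval -0.30 to 0.42, limma adjusted p = 0.75). *Stat6* was at 172, 160 and 136 TPM, overlapping the stimulated libraries, with a log2 difference of -0.07 (95% interval -0.43 to 0.29, limma adjusted p = 0.72). Without stimulated replicate 1, *Stat5b* was at -0.12 and *Stat6* at -0.26 (limma adjusted p = 0.42 and 0.057), while *Socs1*, *Cish*, *Socs2*, *Socs3*, *Stat5a* and *Stat4* passed at -3.09, -3.70, -2.42, -1.71, -1.86 and 0.69.

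TRAIL-treated cells had received both Abs, and the last comparison asked how far their STAT and SOCS levels were from those of medium cells. *Socs1*, *Cish*, *Stat5a* and *Socs3* were higher in TRAIL-treated than in medium cells, and the other 5 genes did not pass. No gene of the 9 was called, beside 4.62% of all tested genes (2.49% higher and 2.13% lower), while 4 passed beside 32.6% of all tested genes and 8.03% that passed as higher. The 4 that passed were also those with no overlap in the higher direction, which 12.4% of all tested genes showed, and *Stat6* had no overlap in the lower direction, beside 38.2%, or 50.6% in either direction. *Socs1* had the largest difference, 12.2 ± 1.37 against 5.84 ± 0.93 TPM (SD, n = 3), a ratio of 2.08 and a log2 difference of 0.95 (SE 0.15, limma adjusted p = 0.0016). This was close to the 2-fold mark, and the gene was called under 5 of 18 alternative settings and passed under all 18. *Cish* differed by 0.58 on the log2 scale (95% interval 0.28 to 0.87, limma adjusted p = 0.0091) and passed under 17 of 18 settings, all but the fit with no filter on TPM (limma adjusted p = 0.054). *Stat5a* differed by 0.45 (95% interval 0.12 to 0.77, limma adjusted p = 0.039) and *Socs3* by 0.37 (95% interval 0.12 to 0.61, limma adjusted p = 0.028).

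These last 2 results were not firm. *Stat5a* passed under 11 of 18 settings and was lost with no filter on TPM, without medium replicate 1 or 3, without stimulated replicate 3 and without any of the 3 TRAIL-treated replicates, with limma adjusted p from 0.0022 to 0.20 over the settings. *Socs3* passed under 13 of 18 and was lost with no filter on TPM, without medium replicate 1 or 3 and without TRAIL-treated replicate 1 or 2, with limma adjusted p from 0.0033 to 0.10. Among the genes that did not pass, *Socs2* was nearest to its medium level, with a log2 difference of 0.05 (95% interval -0.17 to 0.27). The values were 0.11 for *Stat3* (-0.33 to 0.54), -0.09 for *Stat4* (-0.31 to 0.13) and 0.14 for *Stat5b* (-0.22 to 0.50). *Stat6* was below the medium range in all 3 TRAIL-treated libraries, with a log2 difference of -0.36 (95% interval -0.72 to 0.00) and a limma adjusted p of 0.11, and this same difference passed under 2 of 18 settings, without stimulated replicate 1 and with only the 6 libraries compared in the fit (limma adjusted p = 0.018 and 0.032). In this comparison the median of all tested genes was -0.18, and it moved by 0.15 under median-of-ratios scaling and by 0.14 under quantile normalization, while in stimulated against medium cells these shifts were 0.17 and 0.19. *Stat4* against medium changed sign with them, to 0.08 and 0.02, and the 4 genes that passed stayed positive.

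The 2 STAT5 genes were then set against each other within each library, since they are neighbours on chromosome 11 and encode closely related proteins. *Stat5a* (chr11:100859351-100885169, plus strand) and *Stat5b* (chr11:100780731-100850724, minus strand) lie side by side in GRCm38, and *Stat3* (chr11:100885098-100939540, minus strand) overlaps the end of *Stat5a* by 72 bases on the opposite strand. The ratio of *Stat5a* to *Stat5b* TPM was 0.495, 0.525 and 0.526 in the medium libraries. It was 2.33, 2.19 and 2.14 in stimulated and 0.620, 0.627 and 0.672 in TRAIL-treated libraries. *Stat5b* was thus the more abundant of the pair in medium and with TRAIL, *Stat5a* was the more abundant after stimulation alone, and no group overlapped another. The log2 ratio differed by 2.11 between stimulated and medium cells, by -1.80 between TRAIL-treated and stimulated cells, and by 0.31 between TRAIL-treated and medium cells. Each difference had p = 0.1 in a two-sided exact permutation test, the smallest p that 3 libraries against 3 allow. Stimulated replicate 1, low in both genes, had a ratio like those of the other stimulated libraries. The longest coding transcripts of the 2 genes shared 87.9% of 2509 aligned bases and an exact run of 324 bases, and 15.8% of all 50-base windows of *Stat5a* also occurred in *Stat5b*, so some reads may have been divided between them. No other pair of STAT genes and no pair of SOCS genes shared a 50-base window, and STAT genes were not compared with SOCS genes.

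The order of the levels, which TPM allows since it is per length, differed between the groups. In medium, *Stat6* was the most abundant of the 9 genes at 200 TPM, without overlap with the next. *Stat3*, *Stat5b* and *Stat4* followed with overlapping neighbours at 110.6, 101.2 and 95.5 TPM, then *Socs3*, *Stat5a* and *Cish*, each separate from the next, and *Socs1* and *Socs2*, which overlapped. In stimulated cells *Socs3* came first at 308 TPM, above *Stat5a*, *Stat3* and *Cish*, whose neighbours overlapped, and *Stat4* and *Socs2* were the lowest at 53.7 and 33.9 TPM. With TRAIL, *Stat6* was again first at 156 TPM, and *Stat5a*, *Cish*, *Socs1* and *Socs2* again filled the last places, in that order and each separate from the next.

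The summed levels of the 5 STAT genes and of the 4 SOCS genes were compared within each library. The STAT sum was 531 to 605 TPM in medium, 607 to 887 TPM after stimulation and 493 to 588 TPM with TRAIL. The SOCS sum was 89.0 to 106, 639 to 715 and 120 to 136 TPM. The ratio of the SOCS to the STAT sum was therefore 0.168, 0.174 and 0.170 in medium, 1.09, 0.807 and 0.743 after stimulation, and 0.222, 0.243 and 0.244 with TRAIL. All stimulated libraries had a ratio above those of both other groups, and the TRAIL-treated libraries lay above the medium libraries. Within the STAT sum, *Stat5a* took 8.70 to 9.93% in medium, 29.5 to 31.8% after stimulation and 12.9 to 13.2% with TRAIL. The share of *Stat6* was 35.2 to 36.0%, 20.4 to 21.8% and 27.5 to 29.3%, and that of *Stat4* 13.8 to 19.8%, 6.19 to 8.51% and 14.9 to 18.6%. Within the SOCS sum, *Socs3* gave way from 76.3 to 78.8% in medium to 44.2 to 48.3% after stimulation, where *Cish* took 28.5 to 33.3% and *Socs1* 16.3 to 22.2%. With TRAIL the share of *Socs3* was 73.3 to 74.7%, that of *Cish* 11.6 to 12.9% and that of *Socs1* 8.29 to 10.1%. *Socs2* held 4.13 to 6.41% of the SOCS sum in all 9 libraries.

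**Figure D3:**
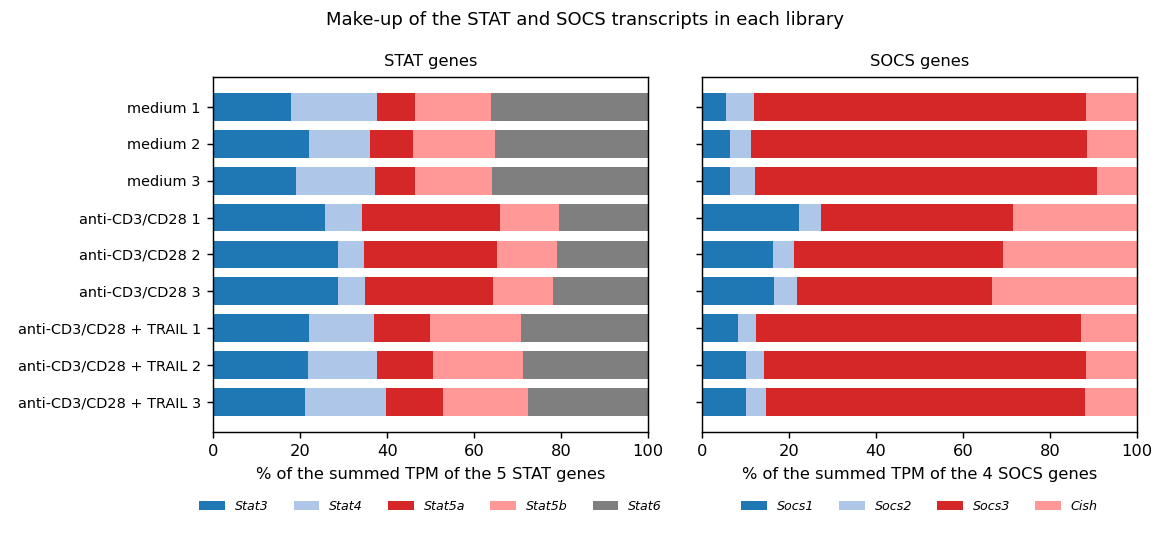
Stacked bars of the percentage of the summed TPM of the 5 STAT genes and of the 4 SOCS genes taken by each gene, 1 bar per library. The *Stat5a* segment was 29.5 to 31.8% of the STAT sum in the stimulated libraries and at most 13.2% elsewhere, and the *Socs3* segment was 44.2 to 48.3% of the SOCS sum there and at least 73.3% elsewhere.

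Around these factors, the JAK kinases, the cytokine receptors and cytokines, other STAT and SOCS genes, partners and inhibitors of the pathway and STAT target genes were examined from fixed lists, 98 genes in all without the 9, of which 94 were tested. As 8 of these met the filter only through the stimulated libraries, the counts are over the other 86. The 86 still include *Il9r* and *Il23r*, whose stimulated means lay under the filter. Of the 86, 43 passed as higher and 31 as lower in stimulated than in medium cells, beside 28.8% and 40% of all tested genes. In TRAIL-treated against stimulated cells, 26 were higher and 45 lower, beside 33.5% in each direction over all tested genes. Against medium, 18 were higher and 21 lower in TRAIL-treated cells, beside 8.03% and 24.6%. Adjusted p-values in the following come from limma.

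The 4 JAK genes split. *Jak3*, the kinase of the common gamma chain, rose from 82.0 to 247 TPM with stimulation (log2 difference 1.57, adjusted p = 2.5e-05) and was at 64.9 TPM with TRAIL (-1.92 against stimulated, adjusted p = 5.7e-06). *Jak2* went the same way, from 92.9 to 235 TPM, with 85.5 TPM after TRAIL (1.32 and -1.44, adjusted p = 5.6e-06 and 3.1e-06). *Jak1*, which pairs with *Jak3* at IL-2 family receptors, fell from 507 to 216 TPM and was at 519 TPM with TRAIL (-1.24 and 1.28, adjusted p = 2.6e-05 and 2.2e-05). *Tyk2* fell from 53.0 to 34.0 TPM (-0.65, adjusted p = 0.0054), and its 39.5 TPM with TRAIL did not differ by the test (0.23, adjusted p = 0.25). None of the 4 passed between TRAIL-treated and medium cells. Among other family members, *Stat2*, which acts in interferon signaling, passed only against stimulated cells (-0.59, adjusted p = 0.045). *Socs4* and *Socs6* fell with stimulation by 0.48 and 0.39 (adjusted p = 0.00094 and 0.020), *Socs4* was higher by 0.27 with TRAIL than without (adjusted p = 0.022), and *Socs5* and *Socs7* passed in none of the 3 comparisons.

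Of 20 cytokine receptor genes, 7 were higher and 12 lower after stimulation (median log2 difference -0.48), and 11 were higher and 6 lower with TRAIL than without (median 0.46). Of all tested genes, 28.8% were higher and 40% lower in the first comparison and 33.5% in each direction in the second. *Il9r* and *Il23r* averaged 0.886 and 0.682 TPM in stimulated cells, under the 1 TPM of the filter. They needed the medium or TRAIL-treated libraries to meet it, so the filter favoured their direction. Both are among the 12 lower after stimulation, and *Il9r* is among the 11 higher with TRAIL. *Il2ra*, the alpha chain of the IL-2 receptor, rose from 24.0 to 868 TPM and was at 23.2 TPM with TRAIL, log2 differences of 5.11 and -5.16 (adjusted p = 6.2e-10 and 7.8e-10). The IL-12 receptor chains rose as well, *Il12rb2* from 3.59 to 135 TPM and *Il12rb1* from 8.65 to 171 TPM, and were at 1.71 and 6.17 TPM with TRAIL. *Il15ra* rose from 9.33 to 67.2 TPM and was at 7.81 TPM with TRAIL. *Stat4*, which signals from the IL-12 receptor, had the opposite sign to *Il12rb1* and *Il12rb2* in both comparisons. *Il7r* fell from 406 to 43.4 TPM and was at 283 TPM with TRAIL (-3.20 and 2.68, adjusted p = 1.1e-08 and 4.5e-08), and *Il6ra* fell from 80.2 to 14.9 TPM and was at 70.5 TPM. *Ifngr2*, a chain of the interferon gamma receptor, was at 36.0 TPM in both medium and stimulated cells and at 90.8 TPM with TRAIL. Against medium, 5 receptor genes were higher with TRAIL and 7 lower (median -0.21), beside 8.03% and 24.6% of all tested genes and their median of -0.18, and *Ifngr2* was the only one of the 20 called (1.31, adjusted p = 3.8e-06). *Il7r* was among the 7 that were lower (-0.52, adjusted p = 0.013).

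Of 20 cytokine genes, 4 were not tested, and 7 (*Il2*, *Il3*, *Il5*, *Il9*, *Il13*, *Il27* and *Csf2*) met the filter on low values only through the stimulated libraries, so their direction in both comparisons with stimulated cells was set by the filter. Of the other 9, 7 were higher and 1 lower after stimulation, beside 28.8% and 40% of all tested genes, and 0 were higher and 6 lower with TRAIL than without, beside 33.5% in each direction. *Il21*, a STAT3 cytokine, rose from 1.53 to 346 TPM and was at 1.01 TPM with TRAIL. *Ifng* rose from 9.19 to 216 TPM and was at 41.3 TPM with TRAIL, still above medium (2.04, adjusted p = 2.9e-05). *Lif* and *Il10* were also called above medium in TRAIL-treated cells, at 11.6 against 0.753 TPM and at 16.8 against 2.51 TPM. For *Il10*, an anti-inflammatory cytokine that acts through STAT3, the 19.4 TPM of stimulated cells did not differ from this by the test (-0.21, adjusted p = 0.27). *Il13* was listed at the lowest value of the table in all medium libraries and reached 50.4 TPM after stimulation and 0.366 TPM with TRAIL. *Csf2* was at 0.345, 27.2 and 0.473 TPM in that order, and *Il4*, the STAT6 cytokine, at 0.740, 28.3 and 1.503 TPM.

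Genes known as STAT targets were grouped by factor, and 9 of the receptor, ligand and target genes stand on more than 1 list. Of 16 STAT5 targets, 13 were higher and 1 lower after stimulation (median 1.62), and 1 was higher and 13 were lower with TRAIL than without (median -1.31). Over all tested genes 28.8% were higher and 40% lower after stimulation and 33.5% in each direction with TRAIL, which also stands beside the STAT4 and STAT6 targets. *Gzmb*, encoding the protease granzyme B, rose from 22.8 to 1766 TPM and was at 23.4 TPM with TRAIL. *Bcl2l1*, a survival gene, rose from 17.5 to 95.9 TPM and was at 15.1 TPM. Not every target was near its medium level with TRAIL. *Pim1*, a kinase gene, was at 134 TPM with medium, 711 TPM after stimulation and 468 TPM with TRAIL. Its fall with TRAIL was 0.60 on the log2 scale (adjusted p = 0.00023), while *Cish* fell by 3.64. *Osm*, a cytokine gene, was at 16.7, 49.1 and 30.4 TPM in the same order, and *Il4ra*, the IL-4 receptor gene, at 149.7, 311 and 290 TPM, with no fall that passed (-0.09, adjusted p = 0.52). *Bcl6*, which STAT5 represses, fell from 33.3 to 6.74 TPM and was at 35.3 TPM with TRAIL (-2.16 and 2.24, adjusted p = 3.9e-07 and 3.2e-07).

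Of 10 STAT3 targets, 4 were higher and 5 lower after stimulation (median -0.004), and 4 were higher and 4 lower with TRAIL than without (median 0.25). These shares were near those of all tested genes. *Il23r*, whose stimulated mean lay under the filter, is among the 5 lower after stimulation. *Hif1a* rose from 82.7 to 858 TPM and was at 86.5 TPM with TRAIL. *Bcl3* rose from 32.5 to 174.9 TPM and *Batf* from 43.1 to 145 TPM, and they were at 27.4 and 62.3 TPM with TRAIL. *Junb* fell from 1069 to 557 TPM and was at 2192 TPM with TRAIL (-0.94 and 1.97, adjusted p = 7.5e-06 and 3.6e-08), above both other groups. Of 7 STAT4 targets, 5 were higher and 2 lower after stimulation and 2 higher and 5 lower with TRAIL than without. *Tbx21*, the Th1 master factor, rose from 13.4 to 136 TPM and was at 10.9 TPM with TRAIL, whereas *Il18r1* fell from 49.1 to 7.37 TPM and was at 34.8 TPM. Of 7 STAT6 targets, *Il24* met the filter only through the stimulated libraries. Of the other 6, 5 were higher and 1 lower after stimulation, and 1 was higher and 4 were lower with TRAIL than without. *Ccr8* rose from 6.45 to 133 TPM and was at 30.7 TPM, and *Gfi1* rose from 14.6 to 130 TPM and was at 38.0 TPM with TRAIL. *Il24* was at 23.4 TPM in stimulated cells and at the lowest value of the table in the other groups. *Fcer2a*, the STAT6 target that fell, from 232 to 28.8 TPM with 91.7 TPM after TRAIL, encodes CD23, a protein of B cells, whose markers moved in the same order.

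**Figure D4:**
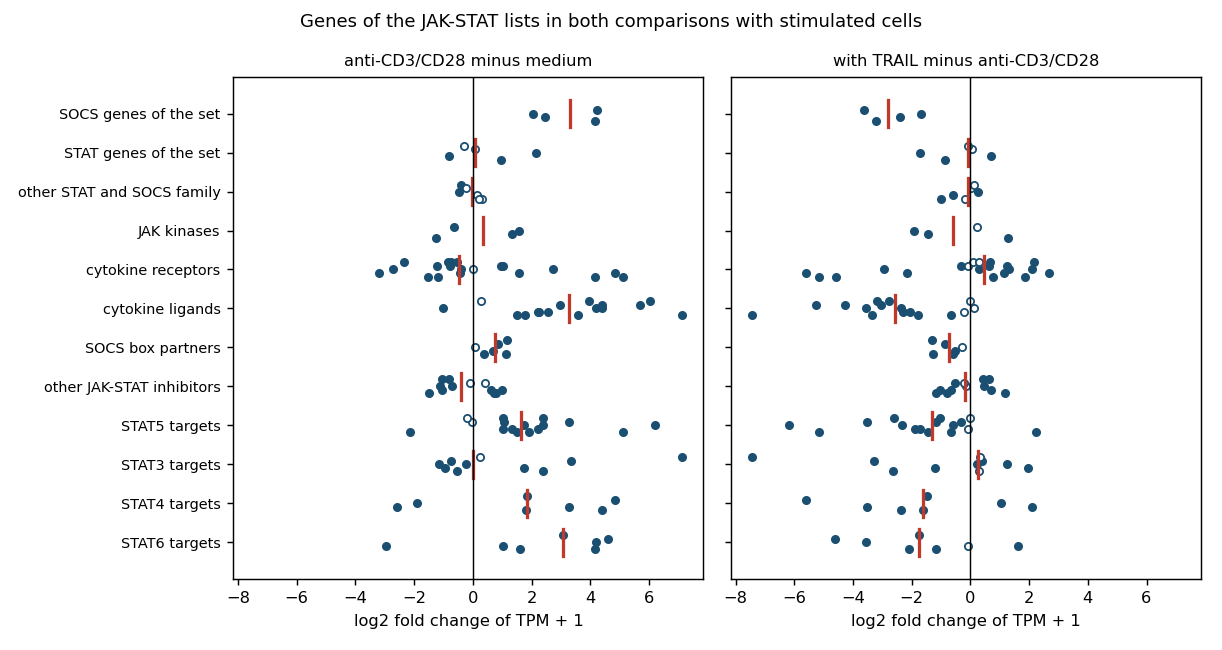
Log2 fold change of TPM + 1 for each gene (points) of the JAK-STAT lists in stimulated against medium cells and in TRAIL-treated against stimulated cells, with the median of each list. The cytokine receptors had medians of -0.48 and 0.46, and the points of the cytokine ligands include 7 genes that met the filter only through the stimulated libraries.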

How the data were processed

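RNA-seq of CD4+ T cells was available for 9 libraries in 3 groups, taken from the sample labels. Per the submitters' processing notes, the tools were Trimmomatic 0.36, HISAT2 2.1.0, SAMtools 1.2, StringTie 2.1.2 and DESeq2. The notes list GRCh38, the study's methods name GRCm38, and the mouse loci of all 9 genes in the table were those of GENCODE M21 (GRCm38). The authors deposited TPM values per gene, which keep no read depth, so the precision rests on the 3 libraries per group. Whether counting used strand is not given in the sources used here.

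From the TPM values, log2(TPM + 1) was fitted in R 4.3.3 with limma 3.58.1 (lmFit, eBayes with a trend) for all 9 libraries together without a replicate block, over the 15536 genes that reached 1 TPM or more in 3 or more libraries. P-values were Benjamini-Hochberg adjusted over these genes. The test was first checked on simulated data. Other steps used Python 3.11.15, pandas 2.3.3, Biopython 1.88 and matplotlib 3.10.9. The 9 genes, the lists and the tests were chosen with earlier results of these data known. Named were the 9 genes, the JAK and remaining STAT and SOCS genes, per list and comparison up to 4 called genes with the largest change, a group mean of 10 TPM or more and no overlap, and per gene of the 9 the 3 genes of most similar pattern. *Il6ra*, *Il4ra*, *Osm*, *Bcl6*, *Cul5* and the cytokine genes given only for the filter were added after their values were seen. The values of 1 gene are not reported here. The 18 alternatives varied the pseudocount, filter, scaling, variance trend, libraries fitted and replicate block, or left out each library. Promoter windows came from RefSeq tables of GRCm38.p6.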

Additional observations from a re-analysis of the deposited data

How the results depend on the processing

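No result for the 9 genes that passed changed direction under any of the 18 settings. The sign changed only for genes that did not pass. With 1 library left out, *Stat5b* ranged from -0.026 (without stimulated replicate 2) to 0.259 in stimulated against medium cells, and from -0.119 (without stimulated replicate 1) to 0.166 in TRAIL-treated against stimulated cells, with -0.010 without TRAIL-treated replicate 1. *Stat6* in TRAIL-treated against stimulated cells ranged from -0.265 to 0.0335 (without stimulated replicate 3), with 0.0266 without stimulated replicate 2 and 0.0288 without TRAIL-treated replicate 3, and was at 0.136 under quantile normalization. In TRAIL-treated against medium cells, *Stat4* was at 0.0752 under median-of-ratios scaling and at 0.0221 under quantile normalization. The number of the 9 genes called between TRAIL-treated and medium cells went from 0 to 1 (*Socs1*) with a pseudocount of 0.1, with median-of-ratios scaling and with quantile normalization. With 1 library left out, this number was 0 to 1 (1 without medium replicate 2 or TRAIL-treated replicate 1), and it was 5 to 6 in both other comparisons (6 with *Stat3*). In stimulated against medium cells it was also 6 under median-of-ratios scaling, with *Stat3* at 1.14. With 1 library left out, the *Stat5a* to *Stat5b* log2 ratio ranged from 2.07 to 2.13, from -1.83 to -1.76 and from 0.28 to 0.33. The called list genes, 8 of which met the filter only through the stimulated libraries, ranged from 48 to 60, 47 to 57 and 9 to 11 in the same way. *Stat6* against medium passed in stimulated cells under quantile normalization (-0.45, limma adjusted p = 0.014).

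Same-numbered libraries did not deviate together throughout, with correlations of deviations from -0.31 to 0.30 over the 9 pairs, so the numbers were not taken as pairs. With a replicate block, 5, 5 and 0 of the 9 genes and 60, 57 and 10 of the 94 list genes were called, as without it. Without the block, 31.9%, 30.9% and 4.62% of all tested genes were called. The list counts include the 8 genes that met the filter only through the stimulated libraries. The log2 ratios of 2.11, -1.80 and 0.31 are the same by construction, since each number occurs once in every group, and say nothing of the block. Depth is unknown, the cell make-up of the libraries was not measured, and reads of *Stat5a* and *Stat5b* may have been divided.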

Other observations

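The genes whose pattern over the 9 libraries was most like that of a STAT or SOCS gene differed from gene to gene. The measure was Pearson's r of log2(TPM + 1), a description that rests largely on the 3 group levels shared by many genes. For *Socs2* the nearest was *Gzmb*, encoding granzyme B (r = 0.999), followed by *Psat1*, a serine synthesis gene, at 27.2 TPM with medium, 448 TPM after stimulation and 26.0 TPM with TRAIL, and *Lyar*, at 53.1, 250.4 and 53.3 TPM in the same order. For *Cish* they were *Hspa9*, a mitochondrial chaperone gene (134, 671 and 157 TPM), *Trib3* (2.63, 78.7 and 5.01 TPM) and *Slc7a5*, an amino acid transporter gene (19.6, 411 and 30.4 TPM), which was also the nearest to *Socs3*, before *Pim2* (39.0, 217 and 55.8 TPM) and *P4hb* (140.7, 343 and 174 TPM). For *Socs1* they were *Xbp1* (78.6, 301 and 111 TPM) and *Atf4* (370, 665 and 415 TPM), factors of the stress response, and *Tubb4b-ps1*. *Stat5a* was nearest to *Las1l* (50.6, 82.7 and 57.8 TPM), *Polr3d* and *Hnrnph2*, *Stat3* to *Runx3* (54.1, 125 and 57.8 TPM), *Igf1r* and *Eif4b*, and *Stat4* to *Esco1* (74.2, 39.4 and 69.3 TPM), *Kin* and *Vrk2*. *Stat6* was nearest to *Vps33a* (r = 0.993), *Itgal* and *Virma*, and *Stat5b* to *Clint1* (r = 0.978), *Ppfia1* and *Jarid2*.

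SOCS proteins act through a ubiquitin ligase. Of 6 genes of that ligase and its wider family, 5 rose with stimulation (median log2 difference 0.76). The same number fell with TRAIL against stimulated cells (median -0.72), beside 28.8% of all tested genes higher with stimulation and 33.5% lower with TRAIL, and none passed between TRAIL-treated and medium cells in limma. *Elob*, encoding the adaptor elongin B, was at 87.1 TPM with medium, 192 TPM after stimulation and 78.2 TPM with TRAIL, and *Cul2*, a scaffold of the ligase family, at 21.1, 48.8 and 19.1 TPM. *Cul5*, the scaffold of SOCS ligases, did not pass in either (0.09 and -0.30, limma adjusted p = 0.62 and 0.091). Of 12 other inhibitors of the pathway, 4 rose and 6 fell with stimulation, near the 28.8% and 40% of all tested genes. With TRAIL against stimulated cells, 5 were higher and 5 lower, beside 33.5% in each direction. Against medium, 0 were higher with TRAIL and 5 lower, beside 8.03% and 24.6%. *Pias1* and *Pias3*, which encode inhibitors of STATs, fell from 50.3 to 17.1 and from 21.1 to 9.19 TPM and were at 40.2 and 13.1 TPM with TRAIL. *Cbl* and *Sh2b3*, an E3 ligase gene and an adaptor gene, also fell, from 82.1 to 40.3 and from 83.1 to 39.9 TPM. With TRAIL they were at 64.3 and 54.1 TPM, higher than in stimulated cells (0.70 and 0.43, limma adjusted p = 0.019 and 0.038). *Ptpn2*, a phosphatase gene, was at 95.2, 191 and 91.9 TPM, and *Usp18*, an inhibitor of interferon signaling, at 23.7, 41.2 and 17.7 TPM.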
